A study of Homo sapiens with 4 samples.

Results

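The genes described here are the nuclear genes for the subunits of respiratory complexes II to V. Entrez identifiers in the count file were matched to symbols, and protein-coding genes were kept when they were SDHA to SDHD, CYC1 or had a symbol that begins with UQCR, COX4I, COX5, COX6, COX7, COX8, ATP5F1, ATP5M or ATP5P. This gave 50 of the 28775 genes in the file, with 4 in complex II, 10 in complex III, 17 in complex IV and 19 in complex V. The rule used no measured value. It leaves out COXFA4, formerly NDUFA4, a further subunit of complex IV whose symbol does not match (log2 fold change of -0.14).

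RNA-seq was performed on HEK293T, a transformed line from human embryonic kidney. The WT group held 2 unedited replicates (WT1 and WT2), and the MORC2 KO group held 2 lines electroporated with Cas9 protein and either gRNA 1 (KO1) or gRNA 2 (KO2). The lines were kept as bulk populations and were not cloned, so each can hold several edits and some unedited cells. No other allele or treatment was named, and fewer expressing cells and less RNA per cell cannot be told apart in such samples. MORC2 is a nuclear ATPase that binds and compacts DNA, and the comparison asks which genes change in expression when it is lost.

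Complex II passes electrons from succinate to ubiquinone, complex III passes them on to cytochrome c, and complex IV hands them to oxygen. Complexes III and IV pump protons across the inner mitochondrial membrane, and complex V, the ATP synthase, uses the return flow to make ATP. All subunits of complex II are nuclear-encoded, whereas complexes III, IV and V combine nuclear subunits with a few that mitochondrial DNA (mtDNA) encodes, so both genomes have to supply parts in proportion. Transcription factors known to act on many of the nuclear genes include NRF1, the ETS factor GABPA and YY1.

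The promoters of 4 members are printed because each has the smallest p in its complex, though none was called. Together they also differ in motif content. They are SDHA, UQCR10, COX7C and ATP5ME. The sequences are RefSeq windows on GRCh38.p14 from 250 bases before to 50 bases after the gene start, read 5′ to 3′ on the strand of the gene. They lie at chr5:218070-218369 on the plus strand, chr22:29767119-29767418 on the plus strand, chr5:86617691-86617990 on the plus strand and chr4:674227-674526 on the minus strand. Capitals mark matches on either strand to GCGCA followed by any base and GCGC (NRF1), CCGGAAG (ETS factors) or AANATGGCG with any base at N (YY1). Matches to different motifs were counted separately, also where they overlap.
SDHA: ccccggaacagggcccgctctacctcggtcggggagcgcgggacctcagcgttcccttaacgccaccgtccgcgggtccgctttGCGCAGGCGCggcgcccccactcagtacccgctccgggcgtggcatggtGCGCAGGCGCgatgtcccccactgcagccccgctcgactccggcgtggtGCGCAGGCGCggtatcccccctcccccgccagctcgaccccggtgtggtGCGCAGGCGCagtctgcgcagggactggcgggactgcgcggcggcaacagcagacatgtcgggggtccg
UQCR10: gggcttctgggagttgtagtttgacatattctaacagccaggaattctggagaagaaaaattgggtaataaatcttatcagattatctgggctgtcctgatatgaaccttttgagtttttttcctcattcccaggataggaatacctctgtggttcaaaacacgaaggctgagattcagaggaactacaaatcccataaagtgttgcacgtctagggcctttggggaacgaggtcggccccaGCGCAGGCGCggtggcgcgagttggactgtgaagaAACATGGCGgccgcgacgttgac
COX7C: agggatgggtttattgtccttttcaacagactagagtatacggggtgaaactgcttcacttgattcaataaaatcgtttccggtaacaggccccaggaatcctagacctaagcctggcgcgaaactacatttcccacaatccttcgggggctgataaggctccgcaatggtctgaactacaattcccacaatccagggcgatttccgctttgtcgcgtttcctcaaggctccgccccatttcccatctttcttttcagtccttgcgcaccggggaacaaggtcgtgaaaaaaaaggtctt
ATP5ME: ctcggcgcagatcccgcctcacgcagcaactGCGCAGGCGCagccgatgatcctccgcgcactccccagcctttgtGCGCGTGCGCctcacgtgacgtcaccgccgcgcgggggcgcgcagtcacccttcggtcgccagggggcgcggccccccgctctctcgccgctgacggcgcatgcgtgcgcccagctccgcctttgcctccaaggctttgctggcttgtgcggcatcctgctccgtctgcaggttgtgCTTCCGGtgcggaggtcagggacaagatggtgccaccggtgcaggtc

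The SDHA window holds 4 NRF1 matches, which begin at -166, -117, -68 and -19 relative to the start. The UQCR10 window has 1 at -8 and a YY1 match at 27. In ATP5ME there are NRF1 matches at -219 and -174 and an ETS match at 3, and in COX7C none of these letters occur. A window was found for 37 of the 50 members. The NRF1 motif was present in 11 of the 37 (29.7%), against 6.28% of all 27305 windows and 11.03% of those of tested genes. The ETS motif was in 15 (40.5%, against 10.7% of all and 17.6% of tested genes) and the YY1 motif in 6 (16.2%, against 3.37% and 6.14%). By complex, the NRF1 motif was in 2 of 3 windows of complex II, 4 of 7 of complex III, 1 of 14 of complex IV and 4 of 13 of complex V. The complex IV match was that of COX8C, a testis form with at most 1 count in a library. COX6A2 and COX7B2, with 0 counts in each library, are also among the 14. A match describes the letters only and does not show binding.

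The libraries held between 53970043 and 64312514 counts on genes, and the members took between 0.634% and 0.721% of them. MORC2 RNA was at 61.1% of WT in the KO samples (58.9% in KO1 and 63.3% in KO2), with a log2 fold change of -0.71 and an adjusted p of 1.37e-04 in edgeR. RNA does not measure the protein, which the study checked by western blot in both lines. Of the HEK293T markers, all 7 passed the filter on low counts. The other 15 marker genes, of blood, liver, fibroblasts, muscle and endothelium, summed to 8.86 and 9.17 CPM (counts scaled to library size, with TMM factors) in the KO samples and 10.1 and 8.92 in WT. COL1A2 had 0 counts in each library, and PTPRC and CD3E had at most 1. KO1 and KO2 differed more from each other than WT1 from WT2, with a chi-square per degree of freedom of 16.8 against 6.56.

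HEK293T cells expressed nearly the whole set. Of the 50 members, 44 passed the filter and 42 were at 10 CPM or more in WT. CPM per kilobase of exon (CPM per kb), which allows levels of different genes to be compared, was highest for ATP5F1B, the catalytic beta subunit of ATP synthase, at 688 ± 23.1 (SD, n = 2) in WT. The highest of complex IV was COX6A1 at 320.3 ± 1.60, of complex III the core subunit UQCRC1 at 206 ± 6.51 and of complex II the iron-sulphur subunit SDHB at 96.7 ± 0.558 (SD, n = 2 each). UQCRC1 and the UQCRH copy UQCRHL (205 ± 20.4) did not differ beyond their spread. The lowest of the clearly expressed members were UQCRB (13.6 ± 1.14), COX7A2L (21.8 ± 0.0665) and ATP5F1E (24.02 ± 1.20), whose exon models are among the longest of the set at 8863, 4285 and 3610 bp. Medians of CPM per kb were 72.4 for complex II, 90.6 for complex III, 143 for complex IV and 105 for complex V, and their ranges overlapped.

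Isoforms known from muscle, testis and lung were at or near 0. COX4I2, COX6A2 and COX7B2 had 0 counts in each library, which allows up to 3 counts (between 0.0466 and 0.0556 CPM without TMM factors). Their ubiquitous partners COX4I1, COX6A1 and COX7B were between 98.5 and 261 CPM. COX7A1, the form of heart and skeletal muscle, had 2 and 6 counts in KO1 and KO2 and 1 in each WT sample. COX8C, a testis form, had 1 count in KO2, 1 in WT2 and 0 in the others. ATP5MF-PTCD1, a readthrough transcript that shares all its exonic bases with other genes, had 1 count in KO1 and in WT2 and 0 in the others. These 6 genes were not tested. COX6B2, another testis form, had 8, 11, 18 and 3 counts in KO1, KO2, WT1 and WT2, and ATP5MGL, an intronless relative of ATP5MG, had 20, 15, 12 and 15. Both passed the filter narrowly, and their 95% intervals run from -1.71 to 1.13 and from -0.75 to 1.18 on the log2 scale.

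**Figure D1:**
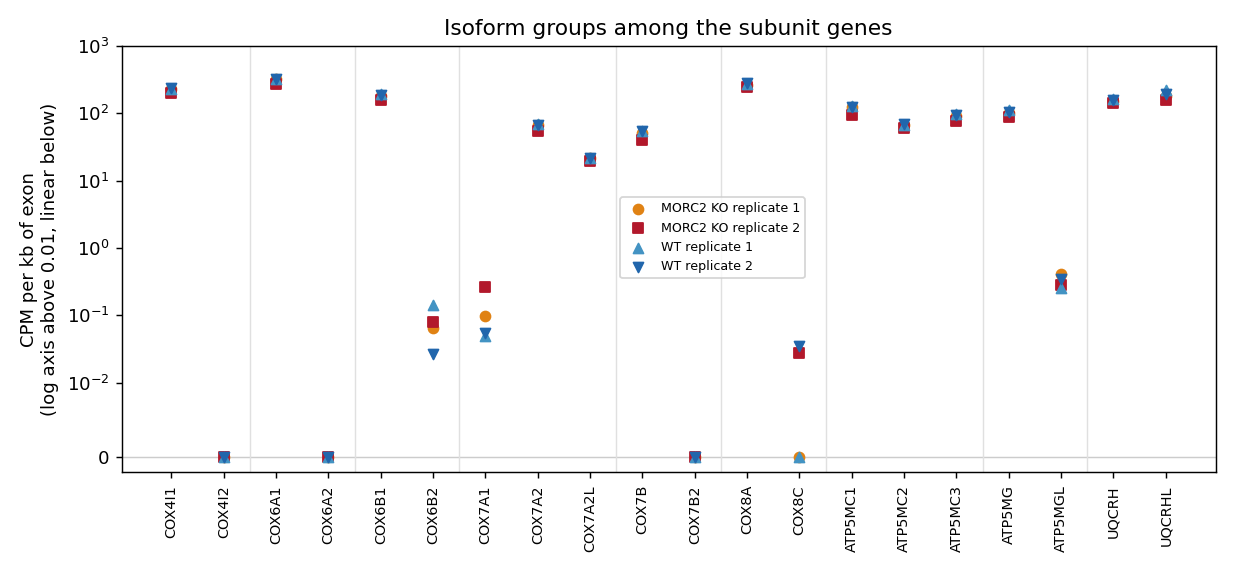
Level of each gene in the isoform groups in the 4 samples, as TMM-scaled CPM per kilobase of exon (log axis above 0.01, linear below). COX4I1, COX6A1, COX6B1, COX7B and COX8A are above 40 in each sample, and their counterparts COX4I2, COX6A2, COX6B2, COX7B2 and COX8C are below 0.2.

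No member passed the test between MORC2 KO and WT, and most fitted changes were small and negative. Of the 44 tested, 0 were called higher and 0 lower at an adjusted p of 0.05 in edgeR, where 0.588% of all tested genes were called higher and 0.03% lower, and DESeq2 also called 0. The smallest adjusted p was 0.147. Without adjustment, 23 members had a p under 0.05 and a negative change (6.17% of all tested genes) and 0 a positive one (8.14%). The log2 fold change was negative in 42 members (48.5% of all tested genes), with a median of -0.15, or 89.9% of WT, where the median of all genes was 0.0054. Among other abundant protein-coding genes with exons under 2000 bp, described below, 91.4% were negative and 29.1% were lower at an unadjusted p under 0.05. The negative sign was thus nearly as common in those genes. Both KO samples were below both WT samples in 33 of the 44 (23.4% of all tested genes), and the reverse occurred in 0 (24.1%). With 2 samples per genotype, an exact permutation test of a single value cannot give a two-sided p below 0.333.

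Most of the difference lay in the KO2 sample. Each line has only its own library, so a difference of the line and of the library cannot be told apart. Set against the WT mean, the median member was at 95.9% in KO1 and 84.4% in KO2. KO2 was the lowest of the 4 samples in 42 of the 44 (33.9% of all tested genes) and below KO1 in 43 (49.2%). KO1 was below the WT mean in 38 (49.4%) and KO2 in 43 (47.5%). Without KO2 the median log2 fold change was -0.061, and without KO1 it was -0.24. Both comparisons use the same WT samples. MORC2 RNA was at 58.9% of WT in KO1 and 63.3% in KO2, and its relation to the order of the lines was not tested.

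**Figure D2:**
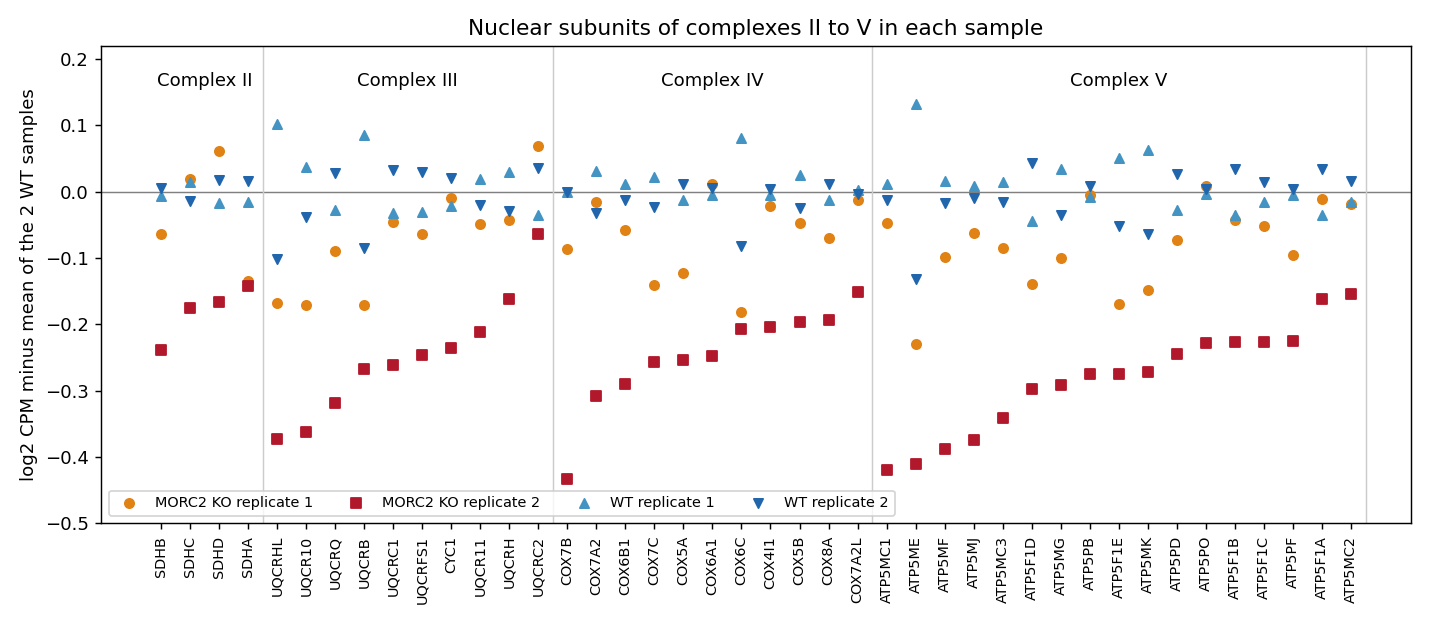
Difference of each clearly expressed member from the mean of both WT samples (log2 CPM) in KO1, KO2, WT1 and WT2, by complex. KO2 is the lowest sample in each of the 42 genes shown, and KO1 lies between KO2 and the WT samples for most.

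**Figure D3:**
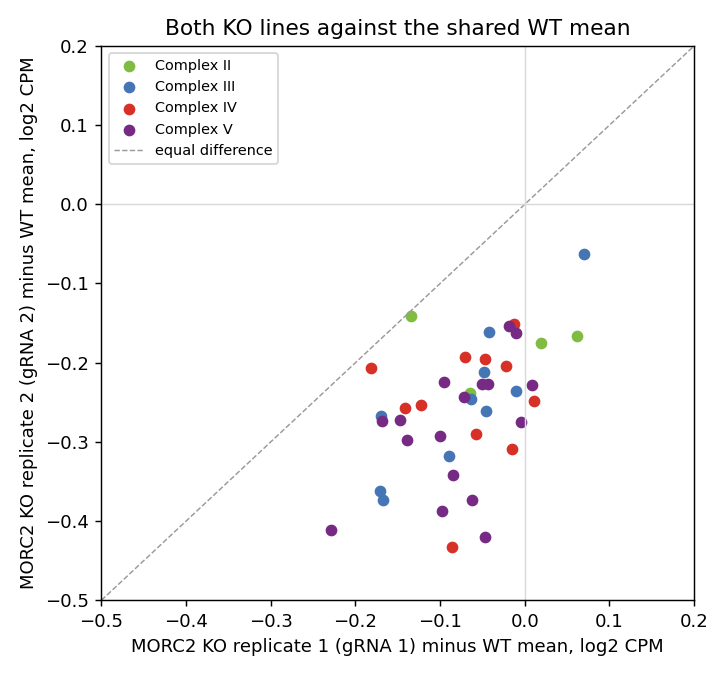
Each point is 1 of the 42 clearly expressed members, with its difference from the WT mean in KO1 on the x axis and in KO2 on the y axis (log2 CPM). All points lie below the dashed line of equal difference, and SDHA and COX6C lie closest to it.

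Complex II had a median of -0.11, with KO1 at 98.4% and KO2 at 88.9% of WT. SDHA, the flavoprotein that oxidises succinate, was at 126 CPM in KO1 and 126 in KO2, against 137 in WT1 and 140.1 in WT2. Its log2 fold change of -0.14 (adjusted p = 0.306 by edgeR, SE 0.056) was nearly equal in both lines. SDHB, which carries the iron-sulphur clusters, was at 93.8, 83.1, 97.7 and 98.5 CPM in KO1, KO2, WT1 and WT2. Here KO2 stood apart, and the log2 fold change was -0.15 (adjusted p = 0.331 by edgeR). The membrane anchors SDHC and SDHD overlapped between genotypes. SDHC was at 167, 146, 167 and 164 CPM and SDHD at 101, 85.8, 95.1 and 97.4 CPM in the same order, so that KO1 was at or above WT and KO2 below. Their log2 fold changes were -0.075 and -0.048.

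Complex III had a median of -0.15, and in 8 of 10 genes both KO samples were below both WT samples (23.4% of all tested genes). UQCR10, a small subunit, had the smallest p of all members. It was at 61.1 CPM in KO1, 53.5 in KO2, 70.6 in WT1 and 67.0 in WT2, so both KO samples were below both WT samples. The log2 fold change was -0.26 (adjusted p = 0.147 by edgeR, SE 0.070), and the gene ranked 278 of 16675 by p. UQCRB, which binds near the ubiquinone site, was at 107, 100.3, 128 and 114 CPM (log2 fold change of -0.22, adjusted p = 0.207 by edgeR). UQCRC1 was at 318, 274, 321 and 335 CPM, with KO1 close to WT1. At the other end stood UQCRC2, its partner core subunit, at 222, 203, 206 and 217 CPM with a log2 fold change of 0.0043 and a 95% interval from -0.13 to 0.14.

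UQCRH, the hinge protein of complex III, and UQCRHL, its intronless copy with 1 exon, share sequence, and reads could be counted at either. UQCRHL was at 50.2, 43.5, 60.5 and 52.5 CPM in KO1, KO2, WT1 and WT2 (log2 fold change of -0.27, adjusted p = 0.195 by edgeR), and UQCRH at 105.7, 97.3, 111 and 106.6 CPM (-0.10, adjusted p = 0.467). Of the counts on the pair, 32.2% and 30.9% fell on UQCRHL in the KO samples and 35.3% and 33.0% in WT, which is lower in both KO samples but close to WT2 in KO1.

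In complex IV all 12 tested genes had a negative log2 fold change, with a median of -0.16. The share was 48.5% of all tested genes and 91.4% of other abundant protein-coding genes with exons under 2000 bp. Among them, COX6B2 had between 3 and 18 counts, and its sign changed with WT1 left out. COX7C, a small subunit, was at 145 CPM in KO1, 134 in KO2, 163 in WT1 and 158 in WT2. Its log2 fold change was -0.20 (adjusted p = 0.207 by edgeR, SE 0.061), and both KO samples were below WT. COX6C was at 76.0, 74.7, 91.1 and 81.4 CPM and COX5A, which contacts the core from the matrix side, at 146, 134, 158 and 161 CPM in the same order. Their log2 fold changes were -0.20 and -0.19, both with an adjusted p of 0.231 in edgeR. COX7B differed most from WT in KO2 among the clearly expressed genes of complex IV, at 98.5 CPM against 125 in KO1 and 133 in each WT sample. COX7A2L, which helps complexes III and IV to join, was among the least different, at 92.5, 84.0, 93.6 and 93.1 CPM with a log2 fold change of -0.081. COX4I1, the subunit that takes part in allosteric control by ATP, was at 256, 226, 259 and 261 CPM (-0.11), COX6A1 at 173, 145, 171 and 173 CPM (-0.11) and COX8A at 131, 120.1, 136 and 138 CPM (-0.13).

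Complex V had a median of -0.18, with KO1 at 95.5% and KO2 at 82.7% of WT. ATP5ME, subunit e at the dimer interface of the synthase, had the largest log2 fold change of the clearly expressed members. It was at 37.9 CPM in KO1, 33.4 in KO2, 48.7 in WT1 and 40.5 in WT2, that is -0.33 (adjusted p = 0.153 by edgeR, SE 0.087). Its WT samples differed from each other by more than KO1 differed from WT2. ATP5F1E and ATP5F1D, the epsilon and delta subunits of the central stalk, followed by p. ATP5F1E was at 77.1, 71.7, 89.8 and 83.7 CPM in KO1, KO2, WT1 and WT2 (-0.22, adjusted p = 0.169 by edgeR), and 40.7% of its exonic bases overlap another gene. ATP5F1D was at 81.4, 72.9, 87.0 and 92.4 CPM (-0.22, adjusted p = 0.203). The most abundant member, ATP5F1B, was at 1175, 1034, 1182 and 1239 CPM (-0.13, adjusted p = 0.449). Its KO1 and WT1 values were nearly equal.

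The 3 genes for the c ring, the proton-driven rotor, encode the same mature protein. ATP5MC1 was at 79.1, 61.1, 82.4 and 81.0 CPM (-0.22), ATP5MC2 at 180.0, 164, 180.3 and 184 CPM (-0.085) and ATP5MC3 at 309, 259, 331 and 324 CPM (-0.21). In KO2, ATP5MC1 was 12.6% of the summed CPM of the 3 genes, against 13.9% in KO1 and 13.9% and 13.7% in WT. The share of ATP5MC2 was 30.4% and 31.3% in WT, 31.7% in KO1 and 33.9% in KO2, while its own level was below WT in both lines. Over the parts of the synthase, the 5 genes of the F1 part (catalytic head and central stalk) had a median log2 fold change of -0.14 and the 12 genes of the membrane part and peripheral stalk one of -0.20, and their ranges overlapped.

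**Figure D4:**
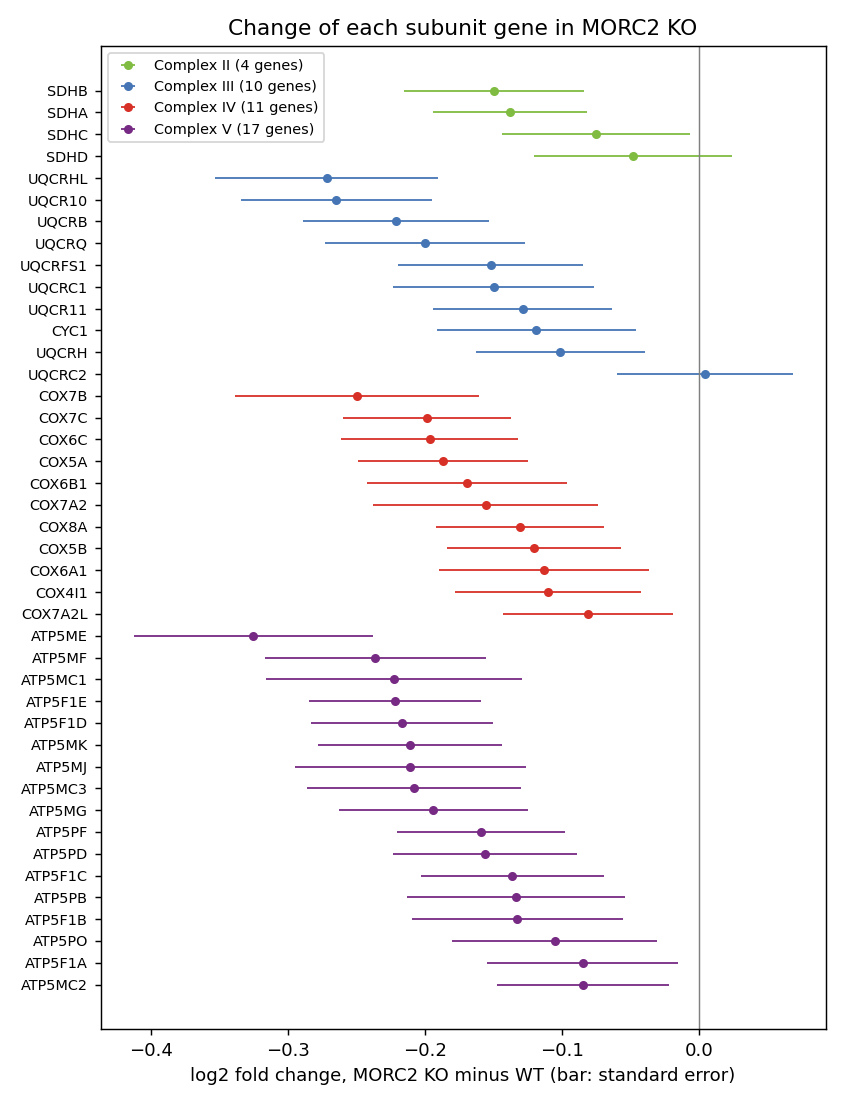
Log2 fold change of MORC2 KO against WT for the 42 members at 10 CPM or more in WT, ordered within each complex, with bars for the standard error of the edgeR fit. Values run from -0.33 (ATP5ME) to 0.0043 (UQCRC2), and the 4 complexes overlap.

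The complexes were compared by their summed levels, which are independent of the library scaling when taken as ratios within a sample. Complex II was at 98.0% of the WT mean in KO1 and 88.5% in KO2, complex III at 96.6% and 85.4%, complex IV at 95.7% and 84.3% and complex V at 96.6% and 84.3%. The ratio of complex V to complex II was 7.84 in KO1, 7.57 in KO2, 7.91 in WT1 and 7.99 in WT2. The ratio of complex IV to complex II was 2.92, 2.84, 3.01 and 2.96, and that of complex III to complex II 2.66, 2.60, 2.69 and 2.69. In these 3 ratios both KO samples were below both WT samples, with differences between -0.052 and -0.035 on the log2 scale. The ratio of complex IV to complex III was also lower in both KO samples (1.098 and 1.095, against 1.12 and 1.10 in WT), with a difference of -0.016 on the log2 scale and an SD of 0.016 in WT. Among 6 pairs, 4 did not overlap between genotypes. The two-sided exact permutation p was 0.333 for each of the 4, the smallest the design allows, and 0.5 after adjustment over the 6 pairs. If genotype made no difference, a ratio would separate in either direction with a probability of 0.333. The 3 ratios to complex II share that term, so they are not separate observations. The ratio of complex V to complex III overlapped (2.95 and 2.91 in KO, 2.93 and 2.97 in WT), as did that of complex V to complex IV (2.69 and 2.66, 2.63 and 2.70). Fitted medians over the members of a complex ranged from -0.11 to -0.18, with an SD between replicates of 0.075 to 0.10.

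The mtDNA-encoded subunits of the same complexes had log2 fold changes of the opposite sign to the median of the nuclear ones. They are COX1, COX2 and COX3, the catalytic core of complex IV, CYTB of complex III, and ATP6 and ATP8 of complex V. COX1 was at 5830 CPM in KO1, 7417 in KO2, 5751 in WT1 and 5151 in WT2, a log2 fold change of 0.28 (adjusted p = 0.291 by edgeR, SE 0.11). CYTB was at 1369, 1621, 1340 and 1171 CPM (0.25, adjusted p = 0.268), and ATP6 at 2652, 3206, 2609 and 2318 CPM (0.25, adjusted p = 0.289). KO2 was again the sample farthest from the others, now as the highest. COX2 (0.20), COX3 (0.17) and ATP8 (0.079) were positive too, and 0 of the 6 were called. COX3 and ATP8 overlapped between genotypes.

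Summed over complexes III to V, the mtDNA-encoded mRNAs were at 106% of the WT mean in KO1, 129.9% in KO2, 105% in WT1 and 94.8% in WT2. The nuclear mRNAs of the same complexes were at 96.4%, 84.5%, 99.6% and 100.4%. The ratio of mtDNA-encoded to nuclear CPM was 2.25 in KO1, 3.15 in KO2, 2.16 in WT1 and 1.93 in WT2, so KO1 was close to WT1 and KO2 above. All mtDNA genes took 2.61% and 3.29% of the counts in KO1 and KO2 and 2.59% and 2.28% in WT1 and WT2. With mtDNA genes left out of the scaling, a choice made after seeing the data, the median log2 fold change of the nuclear members stayed at -0.15.

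**Figure D5:**
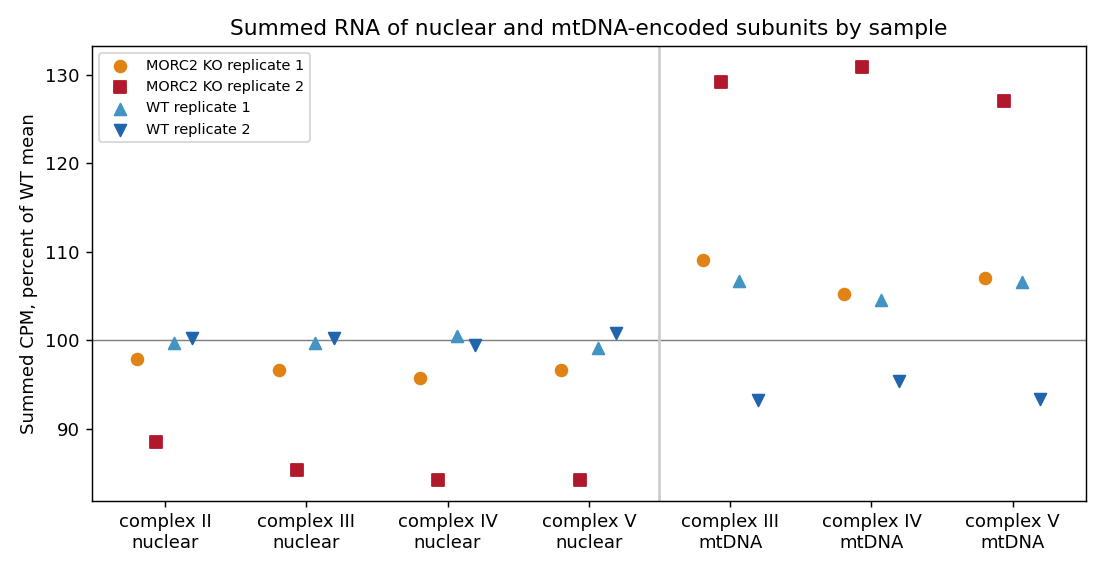
Summed CPM of the nuclear subunits of each complex (left) and of its mtDNA-encoded subunits (right) in each sample, as a percent of the WT mean. KO2 is the lowest sample for the nuclear subunits of each complex and the highest for the mtDNA-encoded ones, where KO1 lies close to WT1.

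Other gene families for mitochondria and ribosomes were placed alike. The nuclear subunits of complex I had a median log2 fold change of -0.15 over 37 tested genes and the mitochondrial ribosomal proteins -0.14 over 77. Genes with symbols that begin like those of cytosolic ribosomal proteins had a median of -0.13 over 97. This last set was matched by the start of the symbol and also takes in other genes, such as the S6 kinases. In each of these sets, 0 genes were called. KO2 was the lowest sample in 91.9%, 96.1% and 86.6% of these genes. Other protein-coding genes with a mean of 6 or more on the log2 CPM scale and exons under 2000 bp had a median of -0.11 over 628 genes, with KO2 lowest in 91.1% and both KO samples below both WT samples in 59.6%. For genes of that abundance with longer exons the values were -0.035, 53.6% and 37.1%. Within the members at 10 CPM or more, the 17 under 1000 bp had a median of -0.20 and the 25 longer ones of -0.14. Split by level in WT, the 17 under 100 CPM had a median of -0.20 and the 25 at 100 CPM or more one of -0.14. The part of gene length and abundance in the difference was not tested beyond the corrected fits, in which the median was -0.13 with offsets on GC content and length and -0.12 with offsets on abundance.

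Among genes that build or serve the complexes, 0 were called. Of 27 assembly factors of complex IV, 7 had a negative change with an unadjusted p under 0.05 and 1 a positive one. Over all tested genes these shares were 6.17% and 8.14%, and the other lists are too short to be read against them. The smallest p among the factors of complex IV was that of CMC2 (-0.19, adjusted p = 0.275 by edgeR). SCO2, a copper chaperone, was at 5.201, 4.36, 5.78 and 6.11 CPM in KO1, KO2, WT1 and WT2 (-0.32, adjusted p = 0.305 by edgeR). Of its exonic bases, 88.4% overlap another gene. COX18, which inserts COX2 into the membrane, was at 25.8, 24.8, 22.2 and 22.7 CPM (0.17, adjusted p = 0.294). Of 9 assembly factors of complex III, 1 had such a negative change, UQCC5 (-0.21), and 0 a positive one. Of 4 for complex II, 1 had a positive change and 0 a negative one by that measure. This gene, SDHAF4, which binds the flavinated SDHA, was at 10.2, 11.2, 8.84 and 8.85 CPM (0.28, adjusted p = 0.247), the opposite sign to SDHA itself. Both KO samples were above WT. Of 7 genes for the assembly and inhibition of complex V, 2 had a negative change with an unadjusted p under 0.05 and 0 a positive one. ATP5IF1, the protein inhibitor of the synthase, was at 117, 103, 130.02 and 125 CPM (-0.21, adjusted p = 0.217).

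Cytochrome c (CYCS), which carries electrons from complex III to IV, was at 384, 357, 422 and 412 CPM (-0.17, adjusted p = 0.273 by edgeR). The list of electron carriers and coenzyme Q synthesis had a median of -0.026 over 14 genes. CYCS and PDSS1 (-0.15) were negative and COQ10A (0.24) positive at an unadjusted p under 0.05 (6.17% and 8.14% of all tested genes). Of the transcription regulators, 10 of 12 were tested, with a median of -0.086, and 0 had an unadjusted p under 0.05. NRF1 itself was at 35.6, 31.9, 37.5 and 36.7 CPM (-0.14, adjusted p = 0.381) and GABPB1, the partner of GABPA, at 34.0, 26.5, 34.2 and 33.7 CPM (-0.17, adjusted p = 0.431). Members with an NRF1 match in the promoter had a median log2 fold change of -0.14 over 10 genes and those without of -0.16 over 23. For the ETS motif both medians were -0.15 (15 and 18 genes), and for the YY1 motif they were -0.15 (6) and -0.14 (27). The fold changes of members with and without these letters were thus alike in their medians.

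The calls depend on the fit. Leaving out the filter on low counts gave 10 members called lower among 182 genes of 22728, offsets on GC content and length gave 1 (ATP5F1E) among 41 genes, and the replicate number as a block gave 2 (ATP5ME and UQCRHL) among 42. With the replicate numbers crossed, a choice made once the data had been seen, 24 members were called lower among 809 genes. Across the scalings, filters and offsets tried with all 4 samples, the median stayed between -0.16 and -0.12.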

How the data were processed

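Polyadenylated RNA of 4 HEK293T samples was sequenced in read pairs. The authors aligned them to T2T-CHM13v2.0 with subread and deposited counts per RefSeq gene from featureCounts 2.0.6 without normalization. The recorded command counts multi-mapping reads and ignores strand, so copies and overlapping genes are less certain.

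Symbols (28763 of 28775 identifiers matched) and promoters were those of RefSeq on GRCh38.p14, and lengths those of the deposited file. Following the methods of the study, genes were filtered with filterByExpr (16675 left), scaled by TMM (factors between 0.986 and 1.03) and compared by genotype with quasi-likelihood F-tests in edgeR 4.0.16 (older form, R 4.3.3), with Benjamini-Hochberg adjustment over all tested genes at 0.05. Adjusted p-values in the text come from this fit. Log2 CPM used a prior count of 2, intervals are at 95%, and the biological coefficient of variation was 5.33%. Limits for counts of 0 cover counting error only. The code was tested on simulated data.

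The members and lists were chosen with earlier results of these data known. Genes were chosen for naming by a rule, which took MORC2, untested members, isoform groups and the mtDNA genes. In each complex it took the 3 members with the smallest p and the highest and lowest per kb. In each list it took the 3 genes with the smallest p. Not all genes of the rule are named above. UQCRC2, SDHD, COXFA4 and the marker genes were named after their values were seen. Alternatives were the newer edgeR form, DESeq2 1.42.0, other scalings and filters, loess offsets (span 0.3) on abundance or on GC content (found for 96.6% of tested genes) and length, the replicate number as a block, and leaving out each sample.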

Additional observations from a re-analysis of the deposited data

How the results depend on the processing

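The members called lower in MORC2 KO numbered 0 in the main fit, 10 without the filter on low counts, 1 with GC content and length offsets, 2 with the replicate block and 24 with the numbers crossed in the block. Over all genes, these fits called 5, 182, 41, 42 and 809 lower. The crossed block, chosen after seeing the data, also moved the members lower at an unadjusted p under 0.05 from 23 to 36. Other settings gave 17 to 29. The deviations of same-numbered samples correlated at -0.12. With so few samples this value cannot show whether the numbers pair the samples, and the labels do not say. The replicate block changed only the calls of ATP5ME and UQCRHL among the members. DESeq2, other scalings and an adjusted p of 0.10 called 0. The cause of these differences was not tested.

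Leaving out each sample once, the median log2 fold change ran from -0.24 to -0.061 over all members, -0.17 to -0.021 in complex II, -0.25 to -0.054 in complex III, -0.23 to -0.062 in complex IV and -0.27 to -0.065 in complex V. The upper end was the fit without KO2 each time. Of the 44 tested members, 7 changed sign with a sample left out. Among these and the other named genes, those that changed sign were UQCRC2 (-0.0016 with DESeq2 and -0.0016 with RLE scaling, and -0.063 to 0.071 with a sample left out), and, with a sample left out, ATP5MGL (-0.079 to 0.48), ATP8 (-0.069 to 0.25), COX6A1 (-0.25 to 0.013), COX6B2 (-0.99 to 1.39), GABPB1 (-0.36 to 0.0019), ATP5PO (-0.23 to 0.0099), SDHC (-0.17 to 0.020) and SDHD (-0.17 to 0.064). ND3 did so with library size alone (0.019), abundance offsets (0.054), GC content and length offsets (0.057) and a sample left out (-0.21 to 0.19). COX6B2 and ATP5MGL had at most 20 counts in a sample.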

Other observations

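Other mtDNA-encoded genes, named after their values were seen, did not all have the same sign. ND4, ND5 and ND6 of complex I had log2 fold changes of 0.31, 0.26 and 0.34, while ND3 was at 323 and 356 CPM in KO1 and KO2 and at 392 and 297 CPM in WT1 and WT2 (-0.022, a sign that changed with the scaling and the samples). Of the 13 mtDNA-encoded mRNAs, 12 were positive, and 9 of these had an unadjusted p under 0.05 (8.14% of all tested genes). The ribosomal RNAs differed in sign. RNR1 was at 411, 415, 512 and 478 CPM in KO1, KO2, WT1 and WT2 (-0.26, adjusted p = 0.118 by edgeR), with both KO samples below WT, and RNR2 was at 1692, 2084, 1741 and 1484 CPM (0.23, adjusted p = 0.342). The libraries were selected for poly-A tails.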
